A study of Mus musculus with 2 samples.

Results

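The 86 genes described here encode mouse potassium channel subunits, out of 23411 genes listed in the deposited tables. They were chosen by symbol: every gene named as a Kcna to Kcnv pore subunit, or as a Kcne or Kcnmb auxiliary subunit, was kept. The rule used no measured value to keep a gene, but it was set with earlier results of these data known. The 86 symbols covered 148 RefSeq transcripts, all of them listed in both tables, and for each gene the transcript that held most reads in the 2 tables together was used. Poly-A RNA had been sequenced from B6 mouse medullary thymic epithelial cells, called mTEC, sorted by flow cytometry into cells with high and cells with low surface MHC class II. Both groups came from thymus pooled from 3 mice with no treatment named in the labels, and their age is not given in the sources used here. Each group has 1 library, so no value below has a replicate, and each difference is between these 2 libraries.

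Potassium channels let potassium ions leave or enter the cell through a narrow selectivity filter, and in most cells they set the resting membrane potential. Voltage-gated members open on depolarization and end action potentials, inward rectifiers and tandem-pore leak channels hold the resting potential, and further members open on intracellular calcium or sodium. Many are known from neurons, heart, kidney or stomach, and mTEC transcribe many genes of peripheral tissues and present their products to developing T cells. The series title names the deacetylase Sirt1 and the transcription regulator Aire in this process.

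The selectivity filter is the part of sequence that pore subunits share and auxiliary subunits lack, and the coding bases of members that lead the results are shown for that reason. The search ran in frame through the coding sequence of a GENCODE vM21 transcript for each of the 86 genes, for the filter signature, which is 5 codons in a row for threonine, any residue, glycine, an aromatic residue or leucine, and glycine. The aromatic residues allowed were tyrosine and phenylalanine. The search found 1 match in 52 genes, 2 matches in all 14 tandem-pore genes, whose protein carries a pair of pore domains, and 0 in 20 genes. The 20 comprised all 5 Kcne and all 4 Kcnmb auxiliary genes, 7 of 8 ether-a-go-go genes, 3 Kcnn genes and Kcnj14. When the first codon could also be one for serine, a choice made after these matches were seen, 77 genes had a match, and the 9 auxiliary genes still had none. In the lines below, the capitals mark the 5 filter codons, and the strand is that of the transcript.
Kcnk6, chromosome 7, codons 97 to 116, first filter: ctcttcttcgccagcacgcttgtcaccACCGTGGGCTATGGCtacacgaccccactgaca
Kcnk6, codons 205 to 224, second filter: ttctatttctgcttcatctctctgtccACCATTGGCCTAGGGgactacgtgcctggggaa
Kcnk1, chromosome 8, codons 108 to 127, first filter: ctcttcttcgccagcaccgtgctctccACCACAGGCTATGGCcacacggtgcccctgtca
Kcnk1, codons 216 to 235, second filter: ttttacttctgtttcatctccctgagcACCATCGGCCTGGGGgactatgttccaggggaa
Kcnj15, chromosome 16, codons 145 to 164: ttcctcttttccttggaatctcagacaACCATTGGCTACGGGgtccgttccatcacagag
Kcna2, chromosome 3, codons 365 to 384: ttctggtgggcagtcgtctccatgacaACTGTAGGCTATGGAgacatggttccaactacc
Kcnt1, chromosome 2, codons 286 to 305: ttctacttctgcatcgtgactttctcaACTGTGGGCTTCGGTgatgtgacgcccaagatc
Kcnh6, chromosome 11, codons 467 to 486, wider search: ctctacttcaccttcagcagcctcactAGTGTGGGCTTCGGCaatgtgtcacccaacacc
Kcnn1, chromosome 8, codons 319 to 338, wider search: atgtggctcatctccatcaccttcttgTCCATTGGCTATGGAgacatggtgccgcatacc

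The MHC-II high library held 138368535 reads on the 23411 genes and the MHC-II low library 56077479. Counts were scaled to CPM, the usual count relative to library size, here with TMM-corrected totals. Markers of mature mTEC matched the sort label, with 6 of 6 higher in the high library and 1555 against 306 CPM in sum, while 5 of 6 markers of immature and basal mTEC were lower there (1807 against 15560 CPM). Tuft-like markers were lower in 6 of 7 cases (426 against 1528 CPM). Markers of other cell types moved with the groups too: endothelial genes were lower among high cells in 7 of 7 cases (63.3 against 445 CPM), fibroblast genes in 4 of 5 (133 against 937 CPM), pericyte and smooth muscle genes in 4 of 8 (606 against 1368 CPM) and erythroid genes in 2 of 4 compared (66.2 against 2146 CPM). Dendritic cell and macrophage genes were higher in 4 of 6 compared (426 against 101 CPM). Neuroendocrine-like genes were split, with 1 higher and 3 lower of 6 (375 against 447 CPM), striated muscle genes had 0 higher and 1 lower of 6 compared (38.2 against 54.6 CPM), glial genes 0 and 0 of 5 (25.4 against 17.1 CPM), and B cell genes 2 and 0 of 4 (29.5 against 23.8 CPM). T cell markers had 1 gene higher and 1 lower of 7 compared (45.4 against 63.0 CPM). No marker of any of the 13 lists was at 0 reads in either library. The part of these cells in the channel values was not tested, and in sorted bulk cells a change in the number of cells of a type and a change in RNA per cell cannot be told apart.

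Every potassium channel gene had reads in both libraries, and most were at low levels. Reads were common among all genes too: of the 23411 listed, 1152 were at 0 reads in the high library and 706 in the low library. The smallest counts of the 86 channel genes, 13 reads (high) and 9 reads (low), were both of Kcnk15. At least 0.1 CPM was reached by 85 of 86 genes among high and 86 of 86 among low cells, and at least 10 CPM by 18 and 21 genes. Levels can be set against each other between genes only per length, so they are given as CPM per kilobase of transcript. The median member stood at 0.839 CPM per kilobase for high and 0.888 for low cells.

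A few genes held a large share of the summed level. Kcnj15, an inward rectifier subunit, was first in both libraries, at 75.4 (high) and 45.4 (low) CPM per kilobase, which was 26.7% and 20.6% of the summed level of all 86 genes. Its 12 listed transcripts share reads and gave log2 ratios of 0.73 to 0.75. In the high library Kcnk6, Kcnh6, Kcnh3 and Kcnq1 followed, at 38.2, 21.4, 10.8 and 10.4 CPM per kilobase. In the low library the next were Kcnq1, Kcnq3, Kcnma1 and Kcnmb4, at 14.5, 12.8, 11.1 and 10.7 CPM per kilobase. The 5 leading genes thus held 55.3% of the summed level among high and 42.9% among low cells, with Kcnj15 and Kcnq1 in both sets. Exons of Kcnj15, Kcnh3, Kcnq1, Kcnma1 and Kcnmb4 overlap those of opposite-strand genes, and the libraries do not keep strand. Kcnq1ot1, opposite Kcnq1, was at 16.9 (high) and 76.0 (low) CPM, beside 31.5 and 43.9 CPM for Kcnq1. The level and rank of Kcnq1 are therefore uncertain.

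**Figure D1:**
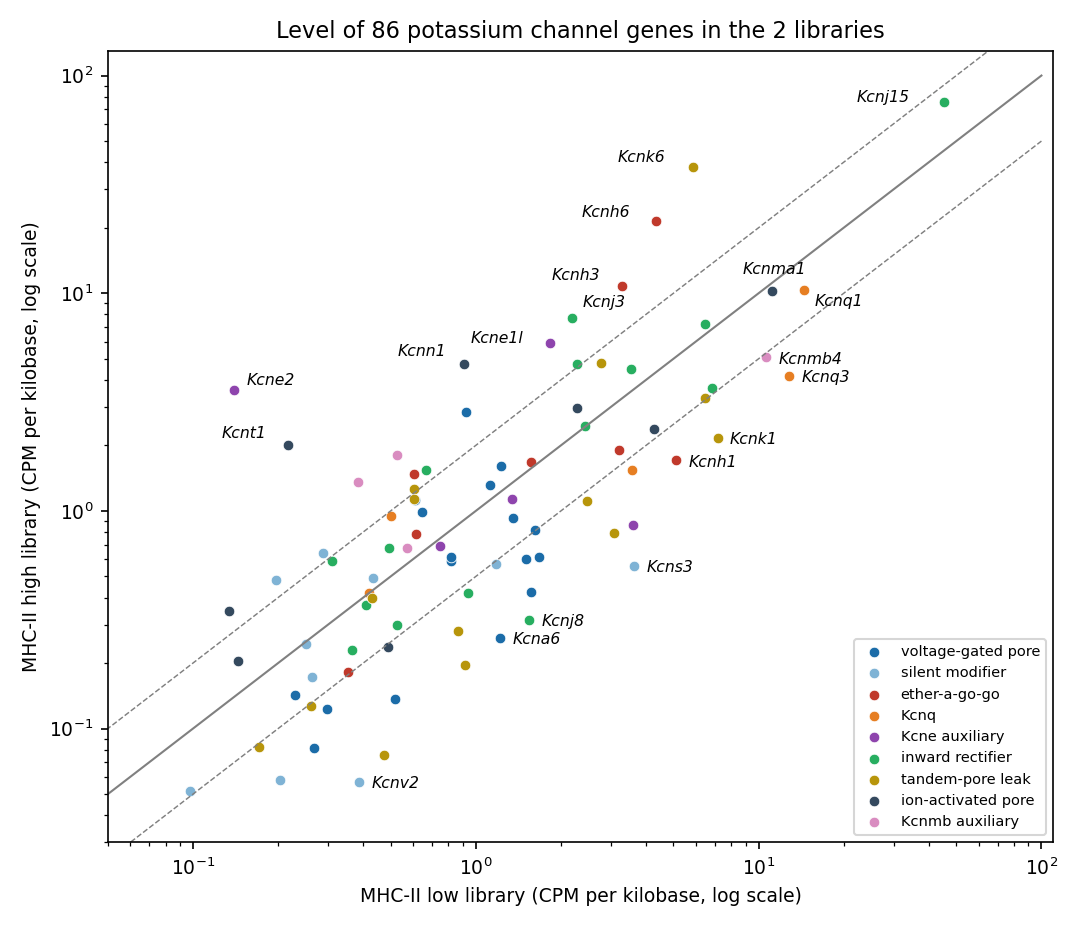
Level of each of the 86 potassium channel genes in the MHC-II low (x axis) and MHC-II high (y axis) library, in CPM per kilobase on log scales, coloured by channel class. The solid line marks equal levels and the dashed lines 2-fold differences. Kcnj15 lies highest in both libraries (45.4 and 75.4), and Kcne2 lies farthest above the line (0.140 and 3.61).

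The comparison asked which channel genes differ between the MHC-II high and MHC-II low cells. A gene was called higher or lower when the whole exact 95% Clopper-Pearson interval of its CPM ratio lay beyond 2-fold, and genes under a mean of 1 CPM were not compared. The interval covers counting error only, since each group has 1 library. It treats reads as independent, which PCR reads without molecular identifiers are not, so it may be too narrow even for that error. Of the 86 genes 69 were compared, 11 were called higher in the MHC-II high library, 13 were called lower, and 45 were neither. Over all 17438 genes compared, 14.5% were called higher and 10.9% lower, against 15.9% and 18.8% of the 69 channel genes. The median log2 ratio of the 69 was −0.12, and that of all genes −0.01. Of the 69, 5 were under 1 CPM for high and 3 for low cells, and so passed through the other library. Among these 8, Kcne2 was called higher and Kcnj8 and Kcnv2 lower.

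The balance of calls depended on the scaling of the libraries. With TMM totals 45.8% of the 24 called channel genes were higher. DESeq2 size factors gave 13 higher and 12 lower, so 52% of those called were higher. The calls were 18.8% and 17.4% of the 69 compared, against 16.4% and 9.29% of all genes. Unscaled totals gave 14 and 11, with 56% of those called higher. The calls were 20% and 15.7% of 70 compared, against 19.8% and 7.35%. The totals implied by the RPKM columns gave 25 and 1, with 96.2% of those called higher. The calls were 45.5% and 1.82% of 55 compared, against 45.2% and 2.94%. These settings move the log2 ratio of every gene up by 0.11, 0.29 and 1.003, respectively. With a fold limit of 1.5 in place of 2, 17 channel genes were called higher and 24 lower. These were 24.6% and 34.8% of the 69 compared, against 22.8% and 20.4% of all genes. Without the minimum on CPM, 12 were higher and 18 lower, or 14% and 20.9% of 86, against 12.1% and 16.3% of all genes. With a minimum of 5 CPM, 8 were higher and 10 lower, or 22.9% and 28.6% of 35, against 12.3% and 10.6%. All 11 genes called higher kept that call with DESeq2 size factors, with unscaled totals and with the RPKM totals. Since each of these settings moves every ratio up, none could bring a higher ratio back inside the limit, so this is no check of those calls. Of the 13 called lower, 12 kept it with DESeq2 size factors, 11 with unscaled totals and 1, Kcns3, with the RPKM totals. No called gene changed sign. Exons of 5 called genes, Kcna6, Kcnj3, Kcnk1, Kcnk2 and Kcnn1, overlap opposite-strand genes with no value in the tables, and those of Kcnd3 overlap Kcnd3os, at 0.0327 against 0.591 CPM. The libraries do not keep strand, so such pairs of genes cannot be told apart.

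**Figure D2:**
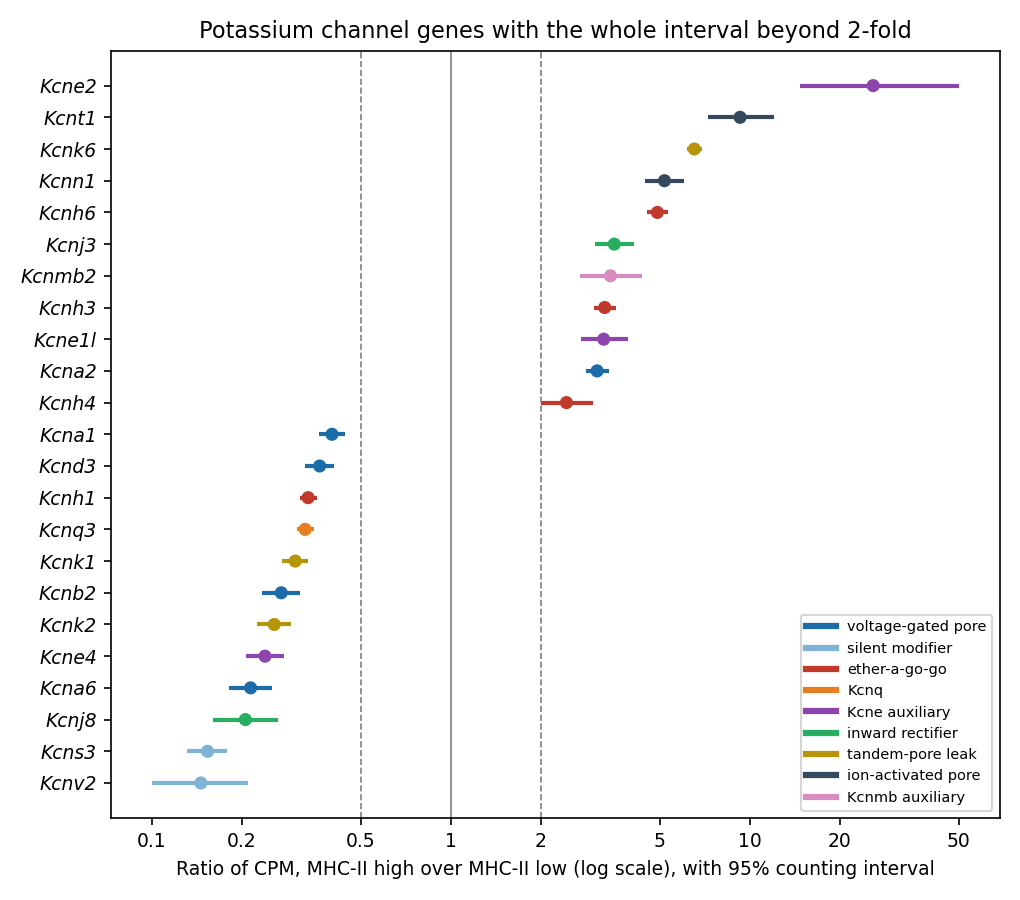
Ratio of CPM, MHC-II high over MHC-II low (log scale), for the 11 potassium channel genes called higher and the 12 called lower with the limit farthest from 1, with 95% counting intervals (bars) and 2-fold marked (dashed lines), coloured by channel class. Kcne2 (25.9) and Kcnt1 (9.29) are at the top, and Kcns3 (0.154) and Kcnv2 (0.146) at the bottom.

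The voltage-gated pore subunits of the Kcna, Kcnb, Kcnc and Kcnd families form tetramers that repolarize excitable cells. Of 17 genes 14 were compared, 1 was called higher and 4 lower, with a median log2 ratio of −0.51. Beside this and every class count below stand the shares over all genes compared, 14.5% higher and 10.9% lower. The classes are small, and whether any differs from these shares was not tested. Kcna2, a channel of axons, had 5059 against 544 reads, or 33.1 against 10.7 CPM. It was 3.09-fold higher among high cells (interval 2.83 to 3.38) and was the most read gene of the class. Its axonal partner Kcna1 went the other way, with 5.40 against 13.5 CPM, 2.49-fold higher in the low library (2.25 to 2.76). That call was lost with unscaled totals, where the log2 ratio was −1.03.

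Kcna6, another Shaker-type subunit of neurons, was at 1.52 against 7.11 CPM, 4.66-fold higher in the low library (3.94 to 5.52). Kcnb2, a delayed rectifier, was at 2.25 against 8.29 CPM, 3.68-fold higher in the low library (3.19 to 4.26). Kcnd3, which carries a transient outward current in heart, was at 4.39 against 12.03 CPM, 2.74-fold higher there (2.45 to 3.06). None of the 4 Kcnc genes, which serve fast-spiking neurons, was called, Kcnc2 having the lowest ratio, 0.413 (0.312 to 0.548). Kcna3, the voltage-gated channel of T lymphocytes, was at 2.22 against 1.20 CPM, a ratio of 1.85 (1.402 to 2.47) that was not called, beside T cell markers summing to 45.4 against 63.0 CPM.

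Members of the Kcna family sit next to each other in the RefSeq gene order, in 2 runs of 3. Kcna5, Kcna1 and Kcna6 are consecutive and had log2 ratios of −0.98, −1.32 and −2.22. In the other run Kcna3 and Kcna2 had log2 ratios of 0.88 and 1.63, and Kcna10, the next gene, had −1.93 on 38 against 48 reads. Neighbours were thus on the same side in the first run and on both sides in the second, although Kcna5 passes 0 with the RPKM totals, which add 1.003 to its log2 ratio.

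The modifier subunits of the Kcnf, Kcng, Kcns and Kcnv families make no channel alone and change the gating of Kcnb channels. Their 10 genes summed to 3.33 (high) and 6.93 (low) CPM per kilobase, the lowest sum of any class in both libraries. Of 6 compared, 0 were called higher and 2 lower. Kcns3 had 245 against 529 reads, or 1.60 against 10.4 CPM, and stood 6.50-fold higher in the low library (5.58 to 7.59). Kcnv2, a subunit of photoreceptors, had 44 against 100 reads and was 6.84-fold higher there (4.75 to 9.99), although the same pair of counts was listed for another gene and its value is uncertain. Both ratios were farther from 1 than those of every other channel gene called lower, while Kcng3 was at 2.15 against 0.965 CPM (ratio 2.23, 1.65 to 3.08, not called).

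The ether-a-go-go genes include the cardiac channel gene Kcnh2. All 8 were compared, 3 were called higher and 1 lower, with a median log2 ratio of 0.22. Kcnh6, a close relative of Kcnh2, had 9319 against 630 reads, or 61.0 against 12.4 CPM, and was 4.91-fold higher in the high library (4.53 to 5.34). Kcnh3, known from forebrain neurons, had 5908 against 599 reads, or 38.7 against 11.8 CPM, a ratio of 3.28 (3.01 to 3.57). Exons of Kcnh3 overlap those of Mcrs1 on the opposite strand. Mcrs1 was at 25.5 against 29.98 CPM, a log2 ratio of −0.23.

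Kcnh4 lay just inside the limit, at 5.57 against 2.28 CPM (ratio 2.44, 2.01 to 2.99). Kcnh1, an ether-a-go-go channel of brain, was the reverse, at 12.2 against 36.5 CPM, 3.00-fold higher in the low library (2.81 to 3.20). Kcnh2 itself was at 8.02 against 13.6 CPM and was not called. The class therefore held genes of similar size in the high library, such as Kcnh1 and Kcnh8 at 1.71 and 1.69 CPM per kilobase, whose ratios differed, 0.334 against 1.07.

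Kcnq channels carry the slow repolarizing current of the heart and the M current of neurons. All 5 were compared, 0 were called higher and 2 lower. Kcnq3, a neuronal M-current subunit, had nearly equal reads, 1840 and 1874, in libraries of unequal depth, which was 12.04 against 36.9 CPM. That made it 3.07-fold higher in the low library (2.87 to 3.27).

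Kcnq1, which serves heart, inner ear and stomach, was the most read gene of that family, at 31.5 against 43.9 CPM (ratio 0.717, 0.682 to 0.755, not called). Its exons overlap those of the antisense transcript Kcnq1ot1, which was at 16.9 against 76.0 CPM, a log2 ratio of −2.17 that was called lower. Without strand the reads of this pair cannot be told apart, so the level of Kcnq1 is uncertain, and its log2 ratio turned to 0.52 with the RPKM totals.

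Kcne proteins are single-span auxiliary subunits that set the gating of Kcnq1 and other channels. All 5 genes were compared, 2 were called higher and 1 lower. Kcne2, which with Kcnq1 forms the potassium channel of the gastric parietal cell, had 935 against 12 reads, or 6.12 against 0.236 CPM. Its ratio of 25.9 (14.7 to 50.3) was the highest of the 86 genes. The genes on either side were not called, with log2 ratios of −0.04 for Mrps6 and −0.96 for Smim11. Kcne1l was at 8.58 against 2.64 CPM, 3.25-fold higher in the high library (2.72 to 3.91).

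Kcne4 was at 2.11 against 8.82 CPM, 4.18-fold higher in the low library (3.61 to 4.83). Kcne1, the partner of Kcnq1 in heart, was at 2.17 against 2.36 CPM, and Kcne3, its partner in intestine, at 1.505 against 1.79 CPM, and neither was called. In order of level per kilobase, Kcne1l and Kcne2 led the family in the high library (5.93 and 3.61). Kcne4 and Kcne1l led it in the low library (3.58 and 1.83), where Kcne2 was last at 0.140.

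The promoters of Kcne2 and Kcna2 are shown for their low and high CG counts among genes called higher, where Kcna2 had the highest count and Kcne2 shared the lowest with Kcnmb2. They come from the RefSeq table of GRCm38.p6, a build other than the mm9 of the authors' files, hold 300 bases that end shortly after the annotated start, and have CG dinucleotides in capitals. The CG count was 9 of 300 bases in the first Kcne2 promoter, 1 in its second promoter (not shown), and 31 in that of Kcna2.
Kcne2, chr16:92292139-92292438, plus strand: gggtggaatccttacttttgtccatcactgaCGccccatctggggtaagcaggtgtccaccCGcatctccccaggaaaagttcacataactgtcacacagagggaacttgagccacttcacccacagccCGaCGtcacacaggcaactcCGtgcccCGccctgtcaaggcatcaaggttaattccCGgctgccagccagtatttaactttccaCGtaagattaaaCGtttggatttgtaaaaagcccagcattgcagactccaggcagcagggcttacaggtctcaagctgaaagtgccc
Kcna2, chr3:107101317-107101616, plus strand: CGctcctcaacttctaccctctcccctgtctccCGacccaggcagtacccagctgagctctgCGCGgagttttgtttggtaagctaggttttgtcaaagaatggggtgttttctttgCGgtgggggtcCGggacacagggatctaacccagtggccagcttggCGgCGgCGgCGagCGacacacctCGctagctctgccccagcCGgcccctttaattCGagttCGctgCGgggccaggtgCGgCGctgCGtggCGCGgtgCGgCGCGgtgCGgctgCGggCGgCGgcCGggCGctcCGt
The table held a promoter for 62 of the 86 channel genes, and for genes with several the one with the most CG was taken. The median CG count was 14 over 8 channel genes called higher, 17.5 over 8 called lower and 11.5 over 34 that were neither. Over all genes with a promoter in the table it was 9 for 1944 called higher, 15 for 1394 called lower and 21 for 10101 that were neither. The letters TATAAA, on either strand, were in 13.6% of all 32851 promoters of that length, several of which can belong to 1 gene. With 1 promoter a gene they were in 3 of the 50 compared channel genes that had one (6%) and in 8.80% of all 13439 such genes compared. The 3 were Kcnj9, Kcnj13 and Kcnj15, and a further promoter of Kcnj16 held the letters too. No listed promoter of the 16 called genes held them.

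Inward rectifiers pass potassium more easily inward and hold the membrane near the potassium potential. Of 15 genes 13 were compared, 1 was called higher and 1 lower, and with Kcnj15 they summed to 532 against 352 CPM. Kcnj15 had 62861 against 12556 reads, or 411 against 247 CPM. Its ratio of 1.66 (1.63 to 1.70) did not reach 2-fold, but it was called higher with the RPKM totals (log2 ratio 1.74). Kcnj3, a G protein-gated subunit of atrium and brain, was at 13.0 against 3.68 CPM, 3.53-fold higher in the high library (3.03 to 4.12). Its atrial partner Kcnj5 was near equal, at 20.2 against 15.9 CPM.

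Kcnj8, the pore of the vascular ATP-sensitive channel and a marker of pericytes, had 106 against 171 reads, or 0.694 against 3.37 CPM. That made it 4.86-fold higher in the low library (3.79 to 6.25). Beside it, the pericyte and smooth muscle markers split: Acta2, Tagln, Mcam and Notch3 were called lower in the high library, while the others were not called: Rgs5 was at 235 against 175 CPM, Pdgfrb at 40.8 against 23.3 CPM, Cspg4 at 10.3 against 9.34 CPM and Myh11 at 200.5 against 121 CPM. The part of pericytes in the Kcnj8 value was not tested. Kcnj11, the pore of the ATP-sensitive channel of pancreatic beta cells, was at 11.4 against 21.4 CPM (ratio 0.535, 0.496 to 0.578, not called). Kcnj12 and Kcnj16 lay just outside the limit, with ratios of 2.31 (1.96 to 2.76) and 2.08 (1.88 to 2.31). Kcnj13, of retinal pigment epithelium, was equal within counting error at 3.30 and 3.29 CPM, but its exons overlap those of Gigyf2 on the opposite strand, at 51.0 against 56.7 CPM.

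Tandem-pore channels carry the background leak of potassium. Of 14 genes 9 were compared, 1 was called higher and 2 lower. Kcnk6 had 23861 against 1213 reads, or 156 against 23.9 CPM, and was 6.53-fold higher in the high library (6.17 to 6.93). It was rank 2 of 86 by level in the high library and rank 10 in the low one. Its neighbours were Catsperg1, at 4.65 against 1.67 CPM, and Yif1b, at 29.0 against 34.7 CPM.

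Kcnk1, of the same weakly rectifying subfamily as Kcnk6, went the other way, at 4.99 against 16.5 CPM, 3.31-fold higher in the low library (2.99 to 3.65). Kcnk2, a channel opened by stretch and by volatile anaesthetics, was at 2.78 against 10.8 CPM, 3.89-fold higher there (3.42 to 4.42). The acid-sensitive Kcnk3 lay just outside the limit, 2.24-fold higher in the low library (1.99 to 2.52), and Kcnk5, another acid- and alkali-sensitive channel, was at 16.1 against 9.30 CPM. Kcnk16, of pancreatic islets, was at 2.91 against 5.69 CPM and was not called. The related Kcnk1 and Kcnk6, whose filter codons are shown above, thus lay on opposite sides.

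Calcium- and sodium-activated pore subunits link the membrane potential to ions inside the cell. Of 8 genes 6 were compared, 2 were called higher and 0 lower. Kcnt1, a sodium-activated channel of neurons, had 1818 against 65 reads, or 11.9 against 1.28 CPM. It was 9.29-fold higher in the high library (7.25 to 12.1), the second highest ratio of the 69. Kcnn1, a small-conductance calcium-activated channel of brain, had 2922 against 187 reads, or 19.1 against 3.68 CPM, and was 5.19-fold higher (4.48 to 6.05).

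The relatives of Kcnn1 did not share its ratio. Kcnn3 was at 18.1 against 32.5 CPM (ratio 0.555, 0.522 to 0.590, not called). Kcnn4, of red cells, lymphocytes and secretory epithelium, was at 6.02 against 4.65 CPM. Kcnma1, the large-conductance channel of smooth muscle and neurons, was the most read gene of the class, with 9685 against 3505 reads, or 63.4 against 69.0 CPM. Its 22 listed transcripts gave log2 ratios of −0.43 to −0.12, and its sign turned with unscaled totals (0.16) and with the RPKM totals (0.88).

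The Kcnmb genes encode auxiliary subunits of the Kcnma1 channel. Kcnmb2 had 804 against 78 reads and was 3.42-fold higher in the high library (2.71 to 4.38). Kcnmb4, known from brain, was at 5.10 against 10.7 CPM, 2.10-fold higher in the low library with an interval of 1.88 to 2.35 that was not beyond 2-fold. Its exons overlap Kcnmb4os1 on the opposite strand, at 1.89 against 4.90 CPM. Per kilobase, Kcnmb4 led the 4 genes in both libraries, at 5.07 and 10.7.

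**Figure D3:**
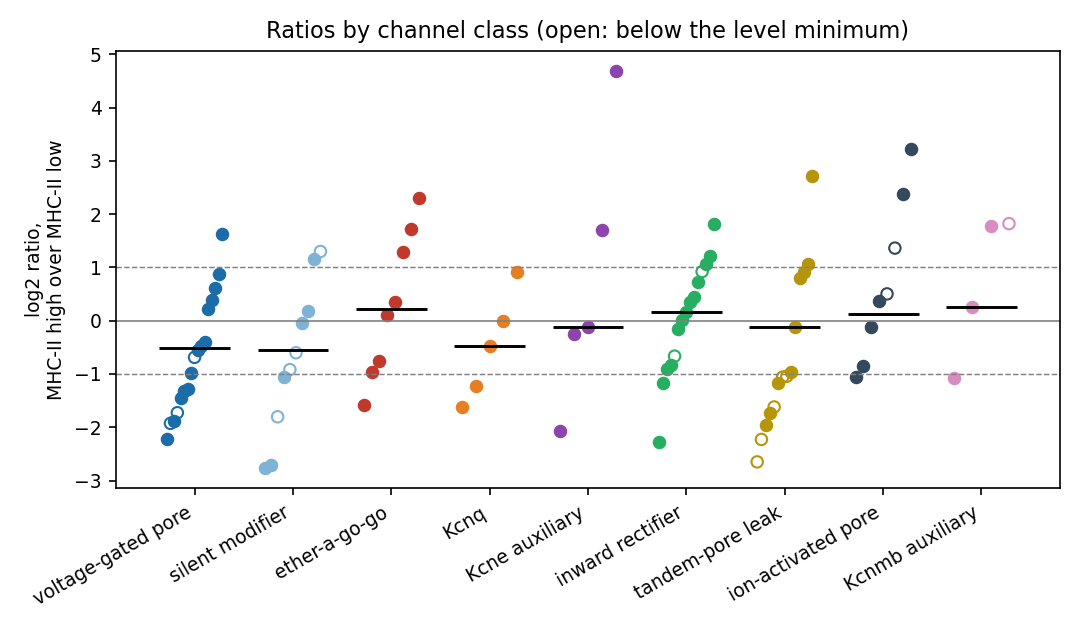
Log2 ratio, MHC-II high over MHC-II low, of the 86 genes by channel class. Filled points were compared, open points lie below the mean of 1 CPM, black bars are medians of the filled points, and dashed lines mark 2-fold. Class medians lie between −0.54 and 0.25, and every class but Kcnq holds filled points beyond both dashed lines.

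Among the 17 genes under a mean of 1 CPM, the interval of Kcnmb3 was beyond 2-fold on the high side (149 against 14 reads). Those of Kcna4, Kcna10, Kcnk4, Kcnk7 and Kcnk18 were beyond it on the low side, Kcnk18 of sensory ganglia having 35 against 73 reads. Exons of Kcnk4 overlap those of Catsperz on the same strand, at 0.262 against 1.24 CPM, and these reads may be shared.

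Many channels work as complexes, so the genes of known partners were set side by side. Of 20 accessory genes outside the Kcn symbols listed, 17 were compared, 2 were called higher and 2 lower, with a median log2 ratio of 0.04. The shares over all genes compared were 14.5% higher and 10.9% lower. Dpp6 and Dpp10 encode alternative auxiliary subunits of Kcnd channels, and they were opposed. Dpp10 was at 95.3 against 13.3 CPM, 7.15-fold higher in the high library (6.62 to 7.74). Dpp6 was at 12.3 against 107 CPM, 8.72-fold higher in the low library (8.27 to 9.19), where Kcnd3 was higher too.

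Abcc8, the sulfonylurea receptor that assembles with Kcnj11, was at 45.6 against 17.4 CPM, 2.62-fold higher in the high library (2.44 to 2.81), while Kcnj11 was at 11.4 against 21.4 CPM. Abcc9, the vascular partner of Kcnj8, was at 6.27 against 8.51 CPM and was not called. Amigo1, a partner of delayed rectifiers, stood 3.24-fold higher in the low library (2.98 to 3.53). Of the beta subunits and the calcium-binding Kcnip partners, the most read was Kcnip3, at 89.4 against 49.7 CPM (ratio 1.80, 1.73 to 1.88, not called). The values of Abcc8, Abcc9 and Amigo1 are given as partners of channel genes named above, chosen after they were seen.

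**Figure D4:**
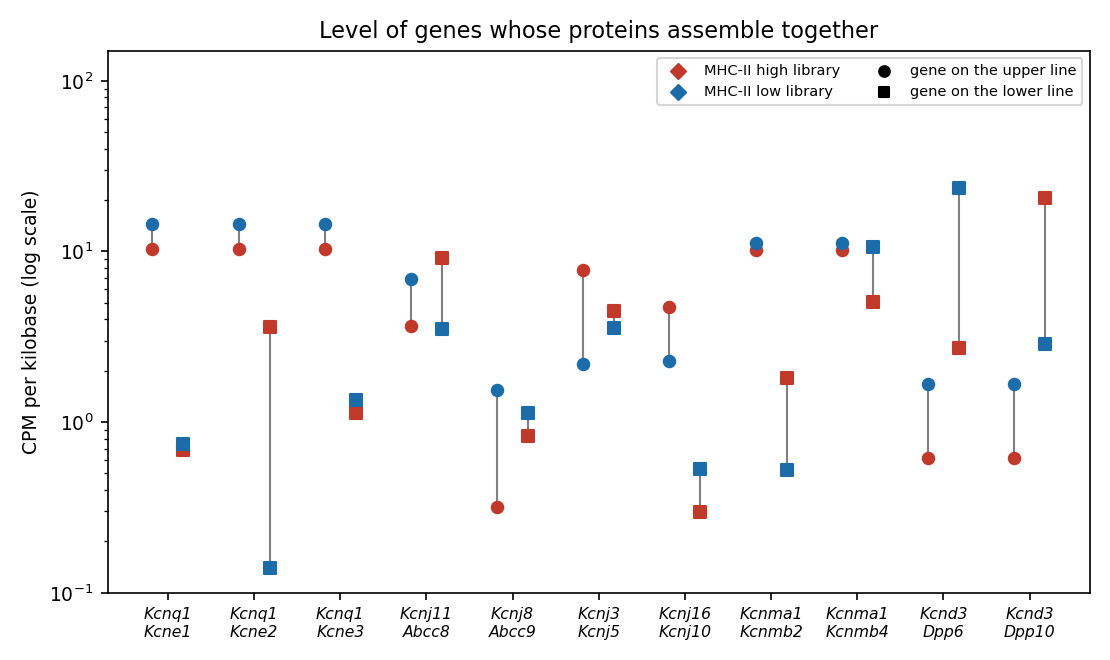
Level in CPM per kilobase (log scale) of pairs of genes whose proteins assemble, in the MHC-II high (red) and MHC-II low (blue) library, with circles for the gene on the upper line of each label and squares for that on the lower line. Kcne2 moves from 0.140 to 3.61 beside a Kcnq1 at 14.5 and 10.4, and Dpp6 and Dpp10 move in opposite directions.

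Other cation channel genes were taken as a comparison. Over all genes compared, 14.5% were called higher and 10.9% lower. Of 14 sodium channel genes compared, 2 were called higher and 5 lower, with a median log2 ratio of −0.30. Scn7a stood 10.2-fold higher in the low library (9.68 to 10.7) and the auxiliary Scn3b 6.88-fold (6.50 to 7.28). Of 23 calcium channel genes compared, 6 were called higher and 0 lower, with a median of 0.37, among them Cacng8 with 734 against 10 reads (ratio 24.4, 13.2 to 51.1) and the skeletal muscle pore Cacna1s (3.16, 2.85 to 3.53). Of 9 cyclic nucleotide- and hyperpolarization-gated genes compared, 2 were called higher and 0 lower, among them the olfactory Cnga2 (4.10, 3.57 to 4.72). The potassium channel genes, with 11 higher and 13 lower, had calls on both sides, as the sodium channel genes did. With the RPKM totals 13 calcium channel genes, 6 sodium channel genes and 6 of the last list were called higher. Those totals called 45.2% of all genes compared higher. Whether these lists differ was not tested.

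The genes next to the called channel genes were looked up in the RefSeq gene order. Beside the 11 genes called higher, 17 neighbours that are not channel genes were compared, of which 3 were called higher and 0 lower, with a median log2 ratio of −0.23. Beside the 13 called lower, 18 were compared, of which 1 was called higher and 2 lower, with a median of −0.32. The shares called over all genes compared were 14.5% higher and 10.9% lower. Those called higher beside the first group were Nr4a2 next to Kcnj3, Catsperg1 next to Kcnk6 and Sohlh1 next to Kcnt1, with log2 ratios of 1.36, 1.47 and 2.19.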

How the data were processed

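Poly-A RNA of MHC-II high and MHC-II low mTEC (1 library each, about 100 ng of RNA, 15 PCR cycles, 2 ends of 100 bases, no strand kept) was analysed from the tables the authors deposited. Per the submitters' processing notes, mm9, CASAVA, Bowtie 1.0.0 and bedtools were used; their settings and the annotation are not given in the sources used here. What the authors deposited, per the file headers, was a read count, a length and an RPKM value for each RefSeq transcript; the RPKM served only to recover the authors' read totals, 213854095 and 142330178. These exceed the deposited counts summed over transcripts (191391401 and 74029717), and which reads they cover is not given in the sources used here. Stray read records (18 and 36 lines) were dropped and 840 lines of further copies in the high table were summed. Symbols came from RefSeq GRCm38.p6 (29352 accessions) and GENCODE vM21 (174), and 394 had none. Only the 29800 in both tables with equal length were used. TMM totals (152834157 and 50769794) came from edgeR 4.0.16 in R 4.3.3, computed on genes with a mean of at least 1 CPM. Ratios had exact Clopper-Pearson intervals (SciPy 1.17.1), and the procedure was checked on simulated counts that vary as these intervals assume. That check does not cover PCR copies, variation between libraries or error in the totals. A limit of 3 reads for a count of 0 (0.0196 and 0.0591 CPM) was not needed for any channel gene.

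Named genes were up to 12 called per direction with the interval limit nearest 1 as the order, the 5 highest per kilobase in each library, the most read gene of each class and 2 called genes of each other list. Further members are given for their role or as just outside the limit, and were chosen with their values seen. The members and lists were chosen with earlier results of these data known. Exons of 24 channel genes overlap another gene's exons in GENCODE vM21, and 4 (Kcnh5, Kcnk9, Kcnmb1 and Kcnv2) had the same pair of counts as another gene. Nothing in the labels says that the libraries were made from separate animals: both came from 1 pool of 3 mice. The filter search had been planned on proteins and was run on coding sequences, since no protein table was used here. Values of some genes are not reported here. Alternatives covered the scaling, the minimum, the transcript, accessions listed in 1 table and the fold limit.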

Additional observations from a re-analysis of the deposited data

How the results depend on the processing

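With the totals implied by the RPKM columns, whose reads are not defined in the sources used here, 25 potassium channel genes were called higher and 1 lower of 55 compared, and their median log2 ratio was 1.11, beside 0.997 over all genes. Over all genes compared, 45.2% were called higher and 2.94% lower with these totals. With a fold limit of 1.5, 17 were called higher and 24 lower of 69 compared. These were 24.6% and 34.8%, against 22.8% and 20.4% of all genes, and the lower limit itself adds calls. Across the other settings (unscaled totals, DESeq2 size factors, no minimum or one of 5 CPM, the longest transcript, missing accessions read as 0, and, added after seeing the data, leaving out genes whose exons overlap another gene's exons) 8 to 14 were called higher and 9 to 18 lower, and the median ran from −0.48 to 0.21. Its sign is therefore not fixed. Detection at 0.5 CPM gave 75 genes for high and 82 for low cells. Of the 35 named genes, judged without the minimum on CPM, 10 lost their call with the RPKM totals and 1 with unscaled totals. Kcnv2 is not among the 10, although it lost its call with the RPKM totals where the minimum of 1 CPM was kept. None of the 35 changed sign while called. No paired analysis was possible because each group has 1 library. Counting error sets the width of the intervals, which among compared genes is broadest for Kcne2 and Kcnv2, and variation between mice or sorts could not be estimated.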
